A study of Mus musculus with 16 samples.

Results

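Of 31603 promoters, 481 overlapped an H3K4me3 peak in cells given the LSD1 inhibitor GSK2879552 (GSK) and none in cells given vehicle (Veh), which is 1.52% of all promoters. A promoter was taken as the 2 kb centred on a transcription start site (TSS) of curated RefSeq annotation, each TSS counted once, and the promoters belonged to 26142 genes. The 481 promoters belonged to 422 genes and lay on 400 distinct GSK H3K4me3 peaks. The opposite set, with H3K4me3 in Veh and not in GSK, held 111 promoters (0.351% of all) of 103 genes on 97 peaks. With the longer GSK H3K4me3 list cut to the length of the Veh list the counts were 304 and 230, much closer to each other. With a stricter peak threshold in both lists, the sets held 433 and 109 genes. A further 15509 promoters had H3K4me3 in both treatments and 15502 in neither. The members were selected on the presence of an H3K4me3 peak alone, listed at 50.6% of all promoters in GSK and 49.4% in Veh. Their H3K4me3 values are therefore a description, and the 10 lists of the other antibodies are the independent readouts.

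The cells were CD8+ T cells isolated from spleens of OT1 mice, a strain with a transgenic T cell receptor that recognises ovalbumin. They were activated for 48 h with anti-CD3 and anti-CD28 antibodies and expanded for 3 days in IL-2, with 0.5 μM GSK2879552 or Veh present in both phases. ChIP-seq was performed with antibodies to LSD1, to mono-, di- and trimethylated H3K4, to H3K27ac and to RNA polymerase II (Pol II), with 1 library for each antibody and treatment. The peak lists carry no read numbers. By the tallies in the study's methods, GSK libraries had fewer unique read pairs than Veh for H3K27ac, by the widest margin, and for H3K4me2 and LSD1. They had more for Pol II, H3K4me1 and H3K4me3. To compare signals, the study drew equal numbers of reads at random from the libraries. It does not say whether the peaks were called on those reads. The part of depth in the results was not tested, and without replicates no difference could be set against a spread between libraries.

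LSD1 is a histone demethylase that removes methyl groups from mono- and dimethylated lysine 4 of histone H3 and cannot act on the trimethylated form. H3K4me3 is laid down at the start sites of active genes and of many CpG-rich promoters, H3K4me1 is most abundant at enhancers and on the flanks of active promoters, and H3K4me2 lies between them. H3K27ac and Pol II mark promoters in use. GSK2879552 inactivates LSD1 by binding its cofactor covalently.

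Peak lists ranged from 2751 peaks for GSK H3K27ac to 40272 for GSK H3K4me1, and the H3K4me3 lists held 15779 peaks in Veh and 16887 in GSK. H3K4me3 was listed in both treatments at 7 of 7 CD8 T cell marker genes. Of the markers of other cells, 1 of 5 for B cells, 1 of 3 for CD4 T cells and 2 of 4 for erythroid cells had H3K4me3 in either treatment. The myeloid markers had it at 1 of 5 in Veh, the transcription factor gene Spi1, and at 0 of 5 in GSK.

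The promoters differed widely in CpG content, and 8 are printed here to show the range. Each run is the 250 bases upstream of the TSS on the strand of the gene, from RefSeq on GRCm38.p6 (mm10), with every CG dinucleotide (CpG) in capitals. Grb10 (chr11:12037421-12037670, minus strand), Hoxa13 (chr6:52260881-52261130, minus strand), She (chr3:89831120-89831369, plus strand), Tent5b (chr4:133479883-133480132, plus strand) and Zxdb (chrX:94724319-94724568, plus strand) were chosen after values were seen, among the strongest peaks that no Veh peak touched. Rpl22 (chr4:152324186-152324435, plus strand) and Pinlyp (chr7:24546006-24546255, minus strand) were among the members with the highest −log10 p. Their GSK peak was also overlapped by a Veh peak that ended outside the window. Zfp239 (chr6:117861774-117862023, plus strand) was a Veh-only promoter.
Grb10: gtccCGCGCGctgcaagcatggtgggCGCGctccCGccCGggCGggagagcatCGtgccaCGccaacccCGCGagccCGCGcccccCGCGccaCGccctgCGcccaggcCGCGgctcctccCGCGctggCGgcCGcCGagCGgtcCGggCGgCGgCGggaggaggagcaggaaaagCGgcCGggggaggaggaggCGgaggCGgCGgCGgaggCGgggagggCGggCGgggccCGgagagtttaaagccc
Hoxa13: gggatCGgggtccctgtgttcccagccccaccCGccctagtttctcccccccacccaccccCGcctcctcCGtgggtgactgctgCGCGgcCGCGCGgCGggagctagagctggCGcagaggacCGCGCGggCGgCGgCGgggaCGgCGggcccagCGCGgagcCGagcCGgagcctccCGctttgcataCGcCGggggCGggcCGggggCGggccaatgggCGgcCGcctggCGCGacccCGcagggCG
She: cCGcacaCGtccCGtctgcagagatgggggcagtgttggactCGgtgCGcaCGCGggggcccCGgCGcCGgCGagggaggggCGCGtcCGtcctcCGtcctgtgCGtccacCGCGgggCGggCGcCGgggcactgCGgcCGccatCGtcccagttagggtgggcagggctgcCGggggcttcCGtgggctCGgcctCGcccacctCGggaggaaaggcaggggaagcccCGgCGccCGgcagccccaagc
Tent5b: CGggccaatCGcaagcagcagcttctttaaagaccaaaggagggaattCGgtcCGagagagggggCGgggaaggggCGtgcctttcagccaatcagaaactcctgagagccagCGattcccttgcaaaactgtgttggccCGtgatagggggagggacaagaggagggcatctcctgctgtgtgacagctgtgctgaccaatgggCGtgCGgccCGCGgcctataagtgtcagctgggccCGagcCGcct
Zxdb: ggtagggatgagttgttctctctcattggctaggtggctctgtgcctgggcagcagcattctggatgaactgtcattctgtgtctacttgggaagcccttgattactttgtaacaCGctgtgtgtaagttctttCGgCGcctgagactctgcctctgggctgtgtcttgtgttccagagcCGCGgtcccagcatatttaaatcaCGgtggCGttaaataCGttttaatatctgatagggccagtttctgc
Rpl22: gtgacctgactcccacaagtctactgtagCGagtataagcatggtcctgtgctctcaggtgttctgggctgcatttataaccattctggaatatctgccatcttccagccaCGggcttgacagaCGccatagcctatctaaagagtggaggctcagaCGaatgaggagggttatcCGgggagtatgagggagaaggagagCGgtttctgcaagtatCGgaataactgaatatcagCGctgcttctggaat
Pinlyp: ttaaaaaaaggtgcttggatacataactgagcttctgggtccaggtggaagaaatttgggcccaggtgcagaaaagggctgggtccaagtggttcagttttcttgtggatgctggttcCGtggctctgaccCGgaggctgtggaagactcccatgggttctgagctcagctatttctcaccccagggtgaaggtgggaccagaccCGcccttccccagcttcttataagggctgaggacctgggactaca
Zfp239: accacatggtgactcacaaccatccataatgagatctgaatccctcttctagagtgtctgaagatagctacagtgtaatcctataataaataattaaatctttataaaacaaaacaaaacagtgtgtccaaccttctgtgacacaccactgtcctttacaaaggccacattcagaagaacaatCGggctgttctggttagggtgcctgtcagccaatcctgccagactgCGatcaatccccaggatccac
In these runs Grb10 had 40 CpG, Hoxa13 35, She 32 and Tent5b 14, while Rpl22 and Zxdb had 8 each, Pinlyp 3 and Zfp239 2. The printed promoters whose GSK peak no Veh peak touched were thus not all rich in CpG in these bases, as Zxdb shows. The Zxdb peak itself lay downstream of the TSS, outside the printed bases.

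Across the sets, the 300 bases around the TSS (250 before and 50 after it) had a median of 17 CpG in the members, 7 in the Veh-only promoters, 22 where H3K4me3 was in both and 4 where it was in neither. The observed over expected CpG ratio, which corrects for GC content, had a median of 0.64 in the members (quartiles 0.39 to 0.85). It was 0.38 in the Veh-only promoters (0.27 to 0.61), 0.78 with H3K4me3 in both, 0.23 in neither and 0.51 over all promoters. Counting as CpG-rich a sequence with a ratio of at least 0.6 and a GC content of at least 50%, 53.2% of the members were CpG-rich, against 25.2% of the Veh-only promoters, 72.4% of those with H3K4me3 in both and 41.3% of all. In CpG content the members therefore lay between the promoters with stable H3K4me3 and those with none. In GC content they did not, with a median of 62.3%, beside 62.0% with H3K4me3 in both and 49.0% in neither.

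Short motifs were counted on both strands in the same 300 bases. GGGCGG, the core of the GC box bound by SP1-type factors, was found in 292 of 481 members (60.7%) and in 41 of 111 Veh-only promoters (36.9%), beside 43.2% of all promoters. TGANTCA, the AP-1 core, was found in 5.0% of the members, 11.7% of the Veh-only promoters and 7.2% of all, and GGAAGT, an ETS core, in 15.6%, 17.1% and 23.9%. TATAAA was found in 8.1% of the members and 12.3% of all promoters, CCAAT in 33.9% and 37.3%, and TGTGGT, a RUNX core, in 11.2% and 15.3%. No motif holds another within it, and a match is a run of letters only.

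The H3K4me3 peaks that chose the members were weak for their list. Their −log10 p, the authors' measure of significance, ran from 5.41 to 148 with a median of 7.85 (quartiles 6.60 to 10.1). Peaks at promoters with H3K4me3 in both treatments had a median of 75.8 in GSK and 74.5 in Veh. The fold enrichment over local background had a median of 4.42 in the members and 6.22 at shared promoters in GSK, and the width a median of 421 bp and 1199 bp. Of the members, 363 (75.5%) had a −log10 p of 10 or less, whereas 16.8% of all GSK H3K4me3 peaks did. The Veh-only peaks were of the same order, with a median −log10 p of 7.55, fold of 4.16 and width of 448 bp.

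**Figure D1:**
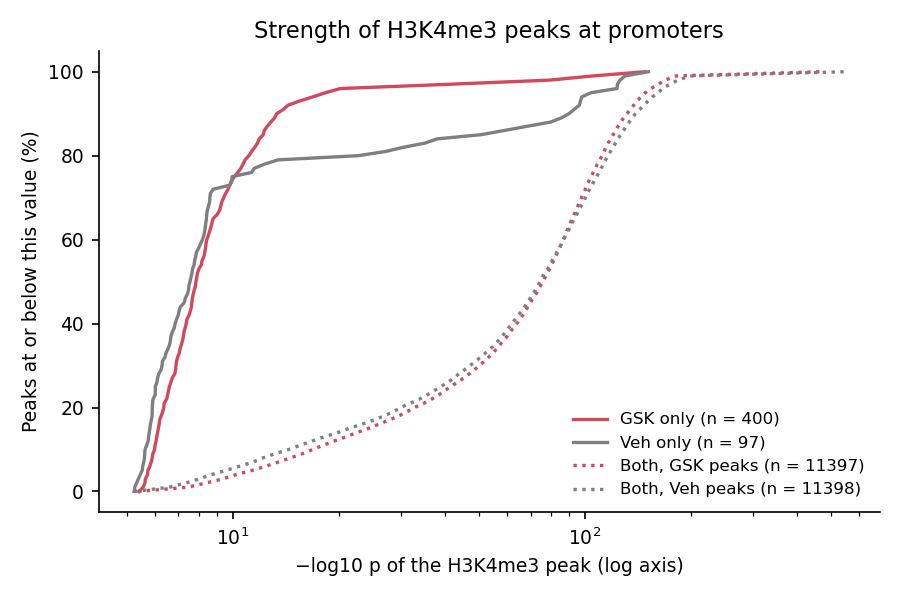
Cumulative share of H3K4me3 peaks (%, vertical axis) against their −log10 p (horizontal axis, log scale), for peaks at GSK-only promoters (red, solid, 400 peaks), Veh-only promoters (grey, solid, 97 peaks) and promoters with H3K4me3 in both treatments (dotted, GSK red and Veh grey). Both one-treatment sets rise steeply at low −log10 p, with medians of 7.85 and 7.55, while the dotted curves have medians of 75.8 and 74.5.

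Most members stood apart from any Veh H3K4me3 peak. For 341 of 481 (70.9%) there was none within 10 kb of the window, and the median gap was 28138 bp. At 37 members (7.69%) the GSK peak itself was overlapped by a Veh peak that ended outside the window, which makes membership a matter of a peak edge. The 15 genes with the highest −log10 p, from Pmel, a melanosome protein gene, at 148 to Gucy2e, a retinal guanylate cyclase gene, at 27.3, were all of this kind. Without such cases 444 promoters were left, with a highest −log10 p of 19.2. Of the 422 genes, 384 had H3K4me3 in Veh at no other TSS.

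Within the window the GSK peak tended to lie downstream of the start. Its centre was downstream of the TSS at 322 of 481 members (66.9%), and it covered the TSS at 195 (40.5%). Over all 481, upstream ones included, the median position of the centre was 146 bp downstream. At the Veh-only promoters the centre was downstream at 62.2%, with a median position of 109.5 bp downstream. By annotation, the centres of the 400 peaks fell in a coding exon at 74 (18.5%), in a UTR or an exon of a noncoding transcript at 108, in an intron at 139 (34.8%) and between genes at 79 (19.8%). At shared promoters 46.0% of centres were intronic and 11.4% between genes. At shared promoters with a GSK −log10 p of 10 or less these were 34.7% and 20.4%. For Veh-only peaks they were 38.1% and 16.5%, so the positions were not particular to the members. Protein-coding transcripts started at 409 members (85.0%), beside 82.3% of all promoters.

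The edge of the rule can be read from the nearest cases. The members with the lowest −log10 q, just above the floor of the list, were Lhx9, a LIM homeobox gene, at 3.21, Ly6a2 at 3.26 and Trank1 at 3.26. Just outside were Ushbp1, 2700054A10Rik and Tbx1, whose windows ended 1, 8 and 12 bp from a GSK peak. Hapln1, Shisa5 and Mir7048 were left out because a Veh peak reached 1, 2 and 6 bp into the window.

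Among the marks that did not enter the rule, H3K4me1 was the most frequent at the members. It overlapped 396 of 481 in Veh (82.3%, 95% interval 78.7 to 85.5) and 429 in GSK (89.2%, 86.1 to 91.7), against 29.4% and 35.7% of all promoters. H3K4me2 overlapped 339 in Veh (70.5%, 66.2 to 74.4) and 292 in GSK (60.7%, 56.3 to 65.0), against 38.2% and 27.4%. Already in Veh, 303 members (63.0%) had both marks, 93 (19.3%) H3K4me1 alone, 36 (7.48%) H3K4me2 alone and 49 (10.2%) neither. Most members thus carried a lower H3K4 methylation state in Veh cells. In all, 432 of 481 (89.8%, 86.8 to 92.2) had H3K4me1 or H3K4me2 in Veh, beside 66.7% (57.5 to 74.7) of Veh-only promoters and 10.5% of promoters with H3K4me3 in neither treatment.

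The members were poor in the marks of promoters in use. H3K27ac overlapped 11 in Veh (2.29%) and 1 in GSK (0.208%), against 20.3% and 8.51% of all promoters. It was in Veh only at 10 members and in GSK only at 0, beside 12.1% and 0.335% of all. The lists held 7410 peaks in Veh and 2751 in GSK, and at equal length H3K27ac was in Veh only at 3 members and in GSK only at 0, a net of −0.62 points in place of −2.08. Pol II overlapped 14 in Veh (2.91%) and 13 in GSK (2.70%), against 28.3% and 24% of all. It was in Veh only at 7 members and in GSK only at 6, beside 7.08% and 2.84% of all. Neither was listed in any of the 4 libraries at 455 members (94.6%, 92.2 to 96.3), beside 90.1% of Veh-only promoters. H3K4me3 was thus listed in GSK at promoters where almost none had a Pol II or H3K27ac peak in either treatment. Fewer cells that carry a mark and less mark per cell cannot be told apart in these bulk libraries.

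**Figure D2:**
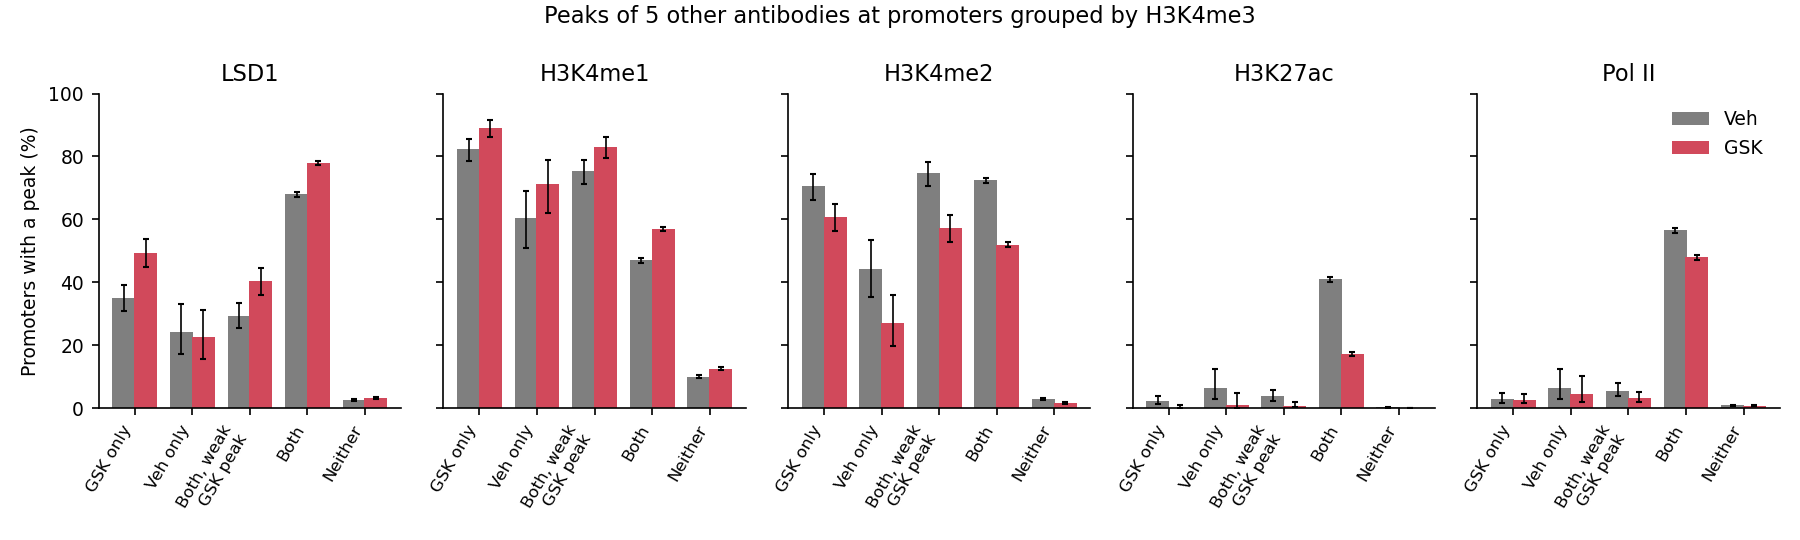
Share of promoters with a peak (%) of LSD1, H3K4me1, H3K4me2, H3K27ac and Pol II in Veh (grey) and GSK (red), for promoters with H3K4me3 in GSK only, in Veh only, in both with a weak GSK peak (−log10 p of 10 or less), in both, and in neither. Error bars are Wilson 95% intervals for counting error; the GSK-only promoters had H3K4me1 at 82.3% and 89.2% and Pol II at 2.91% and 2.70%.

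LSD1 itself was listed at more members in GSK than in Veh. It overlapped 168 in Veh (34.9%) and 237 in GSK (49.3%), beside 35.2% and 40.7% of all promoters. At 109 members (22.7%) LSD1 was in GSK only and at 40 (8.32%) in Veh only, beside 9.92% and 4.51% of all promoters. The net gain, which is the GSK-only minus the Veh-only share, was 14.3 percentage points (9.62 to 18.4). At the Veh-only promoters LSD1 overlapped 24.3% in Veh and 22.5% in GSK, a net of −1.80 points (−11.4 to 8.13). These intervals do not overlap, but they cover counting error only, and neighbouring start sites share peaks. Promoters with H3K4me3 in both treatments also had more LSD1 in GSK, with a net of 9.79 points.

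Where LSD1 peaks were present in both treatments, at 128 members, their rank within the list was higher in GSK at 84 (65.6%), and 64.7% of shared promoters also ranked higher in GSK. By H3K4me2 state, LSD1 was in GSK only at 72 of 254 members with H3K4me2 in both treatments (28.3%, 23.2 to 34.2), at 18 of 85 that had H3K4me2 in Veh only (21.2%, 13.8 to 31.0), at 6 of 38 with H3K4me2 in GSK only and at 13 of 104 with none. It was in Veh only at 24, 5, 4 and 7 of the same groups, so the excess of GSK-only over Veh-only LSD1 lay mainly at members with H3K4me2 in both treatments. At promoters with H3K4me3 in both treatments LSD1 was in GSK only at 16.0% to 18.3% in every H3K4me2 state.

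H3K4me1 was in GSK only at 41 members (8.52%) and in Veh only at 8 (1.66%), beside 9.78% and 3.5% of all promoters, a net gain of 6.86 points (4.27 to 8.45). With lists of equal length the net was 1.66 points (−1.37 to 4.48), an interval that spans 0. At the 388 members with H3K4me1 in both treatments the GSK peak was wider at 276 (71.1%), with a median width of 1143.5 bp in place of 949.5 bp in Veh. It was also wider at 64.8% of promoters with H3K4me3 in both treatments and 73.0% of Veh-only promoters, so the widening was not particular to the members. H3K4me2 moved the other way in the lists as deposited, in GSK only at 38 members (7.90%) and in Veh only at 85 (17.7%), beside 1.92% and 12.8% of all promoters, a net of −9.77 points (−13.6 to −5.35). The GSK H3K4me2 list held 9437 peaks and the Veh list 15219. With both cut to 9437 peaks the net of the members was 12.9 points (8.15 to 17.0), from 47.8% in Veh to 60.7% in GSK, so the direction of H3K4me2 at the members depended on the length of the lists. With the same cut, promoters with H3K4me3 in both treatments had a net of 2.01 points and Veh-only promoters −3.60.

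A group of like strength helps to place these shares. Among promoters with H3K4me3 in both treatments, 506 had a weak GSK peak, with a −log10 p of 10 or less, a limit chosen after the values were seen. H3K4me1 overlapped 75.3% of them in Veh and 83.0% in GSK, H3K4me2 74.7% and 57.1%, LSD1 29.4% and 40.3%, and Pol II 5.53% and 3.36%. The net change of LSD1 there was 10.9 points, near that of the members. H3K4me1 with H3K4me2 in all 4 lists was found at 48.4% of the members, 48.6% of the weak shared promoters and 18.9% of the Veh-only promoters. For GSK LSD1 the intervals of the members and the weak shared promoters nearly touched (44.8 to 53.7 against 36.1 to 44.6). For net H3K4me2 they lay further apart (−13.6 to −5.35 against −19.7 to −14.4). These intervals count each TSS as independent, while the members lay on 400 H3K4me3 peaks and the weak shared promoters on 427. Whether the sets differ in GSK LSD1 when peaks are counted was not tested. At equal list length the net of H3K4me2 was 12.9 points (8.15 to 17.0) in the members and 3.95 (−0.04 to 7.66) in the weak shared promoters.

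Around the TSS, peaks of the 3 H3K4 methylation states lay over each other at the members. In GSK, an H3K4me3 peak covered the TSS itself at 41.0% and the position 200 bp downstream at 50.1%, the highest share. H3K4me1 covered the TSS at 55.9% in Veh and 64.0% in GSK and was also highest 200 bp downstream, whereas at promoters with H3K4me3 in both treatments it covered the TSS at 15.1% and 18.7%. H3K4me2 covered the TSS of the members at 39.9% in Veh and LSD1 at 13.3%, and in GSK LSD1 covered it at 22.3%. H3K4me1 of the members was thus concentrated around the start site. Over all promoters with H3K4me3 in both treatments its coverage was low and nearly level there. The concentration was not particular to the members. H3K4me1 covered the TSS of the weak shared promoters at 50.0% in Veh and 57.9% in GSK. The position 1 kb upstream was covered at 7.71% and 12.6% of them. At the Veh-only promoters H3K4me1 covered the TSS at 37.8% in Veh and 45.0% in GSK.

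**Figure D3:**
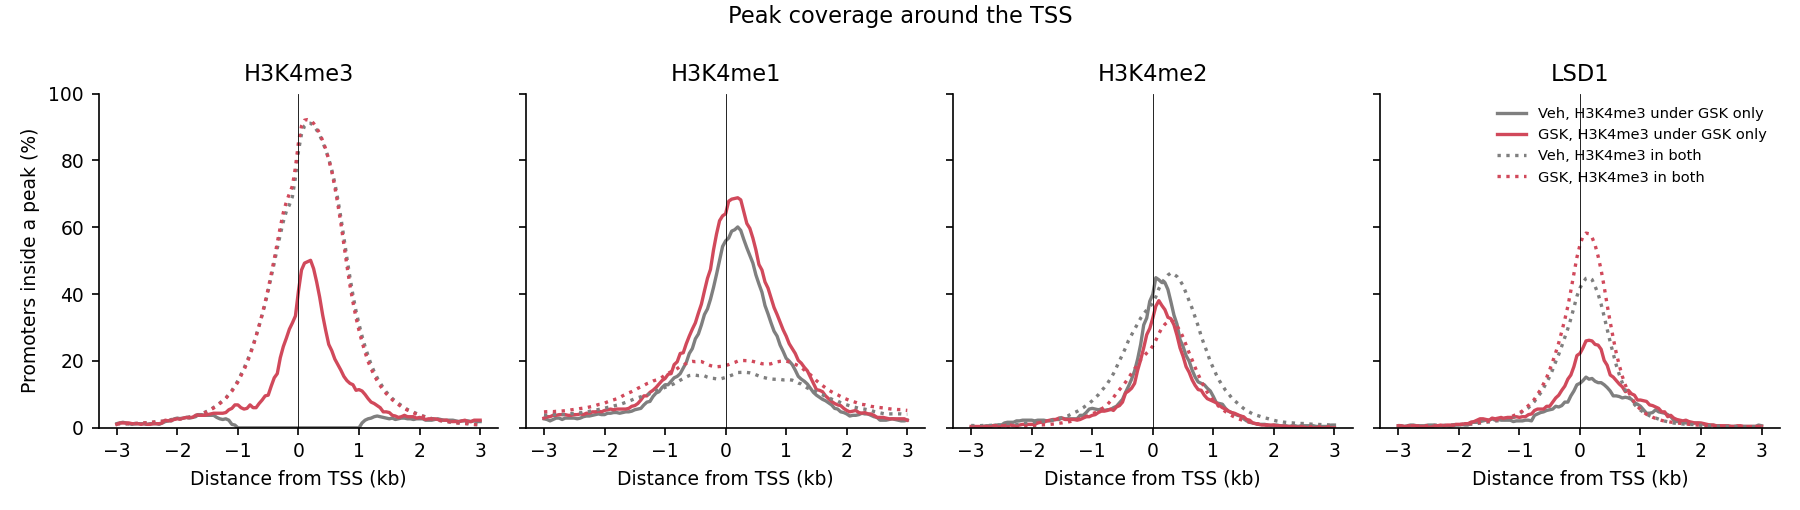
Share of promoters inside a peak (%) at each distance from the TSS (kb, negative is upstream) for H3K4me3, H3K4me1, H3K4me2 and LSD1 in Veh (grey) and GSK (red), at GSK-only promoters (solid) and promoters with H3K4me3 in both treatments (dotted). H3K4me1 of the GSK-only promoters is highest 200 bp downstream of the TSS (68.8% in GSK), while the dotted H3K4me1 curves stay low and nearly level. The weak shared promoters, which are not drawn, also had H3K4me1 over the TSS (57.9% in GSK). The Veh H3K4me3 line is at 0 within 1 kb because the rule sets it so.

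The comparison was then turned round, to ask which promoters without H3K4me3 in Veh had it in GSK. Of 15983 such promoters, 481 did (3.01%). The share was 44.0% (303 of 689, 40.3 to 47.7) where Veh cells had both H3K4me1 and H3K4me2, 30.8% (36 of 117) with H3K4me2 alone, 7.41% (93 of 1255) with H3K4me1 alone and 0.352% (49 of 13922) with neither. Where LSD1 was present in Veh beside both marks it was 61.0% (119 of 195, 54.0 to 67.6), and without LSD1 37.2% (184 of 494, 33.1 to 41.6). Of these classes, promoters with all 3 in Veh cells had the highest share with H3K4me3 in GSK.

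In the opposite direction, of promoters without H3K4me3 in GSK, those with H3K4me1 and H3K4me2 in GSK had H3K4me3 in Veh at 10.8% (29 of 268). It was 11.0% (10 of 91) with LSD1 and 10.7% (19 of 177) without. The asymmetry was smaller with lists of equal length. With both H3K4me3 lists at 15779 peaks, a setting added for this comparison after the values were seen, the share gained in GSK was 30.3% with both marks, and the share found in Veh only was 20.9%. With LSD1 beside both marks it was 47.7% (40.8 to 54.7) against 23.1% (17.2 to 30.3), and without LSD1 23.5% (20.0 to 27.4) against 19.6%. The intervals of the pair without LSD1 overlapped. Only the H3K4me3 lists were cut here, and the classes kept the other lists as deposited. The H3K4me2 list held 15219 peaks in Veh and 9437 in GSK, and its part in the remaining asymmetry was not tested.

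**Figure D4:**
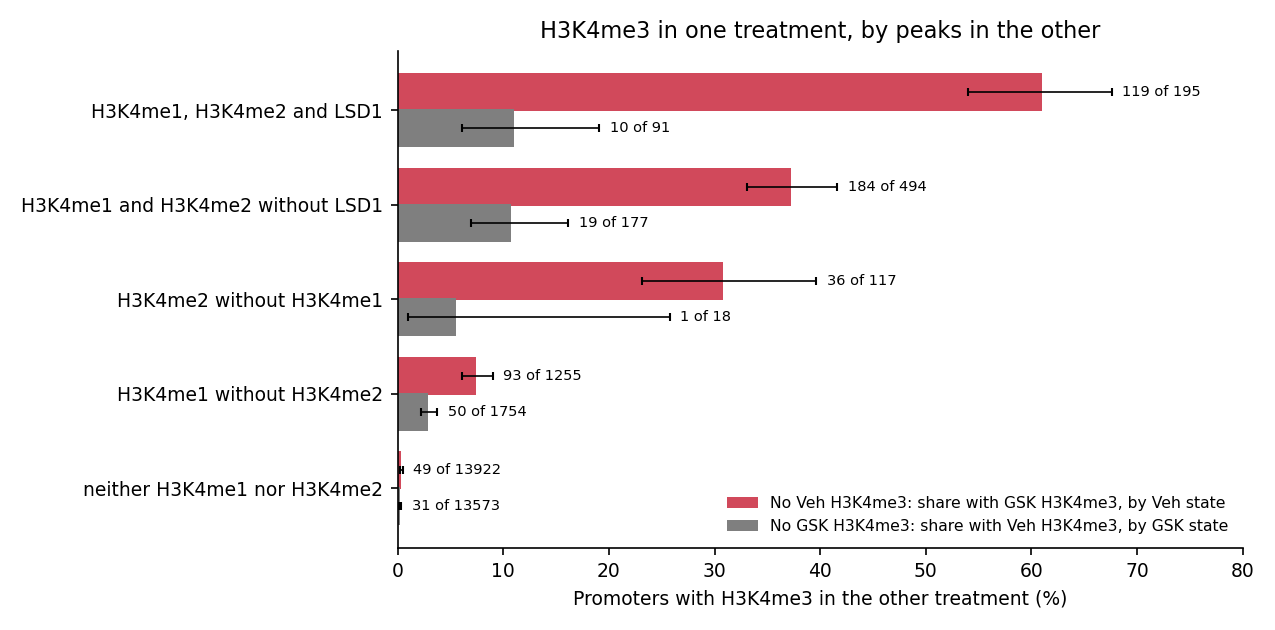
Share of promoters (%, with the counts) that had H3K4me3 in the other treatment, by the other marks listed at them: promoters without Veh H3K4me3 by their Veh marks (red) and promoters without GSK H3K4me3 by their GSK marks (grey), from the lists as deposited. Bars are Wilson 95% intervals for counting error; the red bars fall from 61.0% with H3K4me1, H3K4me2 and LSD1 to 0.352% with neither methyl mark.

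The 303 members with both marks in Veh could be set beside the 386 promoters with the same Veh state that had no H3K4me3 in GSK. LSD1 was listed in Veh at 39.3% of the former and 19.7% of the latter, and in GSK at 58.7% and 26.9%. H3K4me2 was still listed in GSK at 76.9% and 38.6%, while H3K4me1 was at 99.3% and 98.4%. The Veh H3K4me2 peaks had a median width of 600.0 bp and 458 bp. Of the former 62.0% (56.5 to 67.3) were CpG-rich, and of the latter 40.7% (35.9 to 45.6). Within CpG-rich promoters with both Veh marks, 54.5% (188 of 345) had H3K4me3 in GSK, and within the others 33.4% (115 of 344).

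Developmental regulators were among the member genes. Of 279 homeobox and other developmental transcription factor genes, 25 (8.96%, 6.14 to 12.9) were members and 1, Nkx3-2, was Veh only, beside 1.61% and 0.394% of all genes. Of the 190 without Veh H3K4me3 at any TSS, 25 (13.2%) had it in GSK, beside 2.93% of all such genes. Among them were Hoxa13, Foxe3, Twist1, Pitx3, Zic2, Emx2, Foxd3, Pitx1, Foxb2, Zic1, Nkx2-4, Barhl2, Onecut1, Ascl5, Hand2, Lhx6, Tbx2, Sox18, Hoxa11, Pax6, Lhx9 and the antisense genes Emx2os, Hand2os1 and Hoxa11os. The list's member promoters lay on 22 distinct peaks. ChIP-seq has no strand, so an antisense gene and its partner cannot be told apart. With H3K4me3 lists of equal length the counts were 11 and 6 of 279, beside 266 and 207 of all 26142 genes. The list's excess over the Veh-only set was thus smaller there, and its Veh-only share was also above that of all genes.

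The peaks of these 25 genes had a median −log10 p of 7.04 and fold of 3.93. Of their 27 promoters, 26 had H3K4me1 in Veh and 27 in GSK, 19 and 21 had H3K4me2, and 12 and 15 had LSD1. None had H3K27ac or Pol II in either treatment. Hoxa13, a homeobox gene of limb and genital development, had the strongest peak of the list, at chr6:52260263-52260888 with its centre in a coding exon, with an H3K4me3 fold of 7.00 in GSK and no peak in Veh. Its LSD1 fold was 4.13 in Veh and 4.47 in GSK, its H3K4me1 fold 3.54 and 4.07 and its H3K4me2 fold 5.09 and 4.81, so these marks were listed in both treatments. Twist1, a basic helix-loop-helix gene of mesoderm, had LSD1 in GSK only at a fold of 4.53. Foxd3, a gene of neural crest cells, had both LSD1 (6.07) and H3K4me2 (4.91) in GSK only. Hand2, a heart and limb gene, had H3K4me2 in GSK only (4.42), and Pax6, an eye and brain gene, in Veh only (4.03).

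Of 213 morphogen, growth factor and guidance genes, 19 (8.92%, 5.79 to 13.5) were members and 3 (Wnt5b, Fgf15 and Inhbe) were Veh only. Over all genes 1.61% were members and 0.394% Veh only. Of the 121 listed genes without Veh H3K4me3 at any TSS, 18 (14.9%) had it in GSK, beside 2.93% of all such genes. With equal lists the counts were 15 and 8 of 213, beside 266 and 207 of all 26142 genes. Both shares of the list were then above those of all genes. The members held the ligands Fgf8, Fgf9, Wnt6, Wnt7a, Wnt9a, Bmp8b, Igf2, Efna3 and Efna5 and the receptors Fgfr3, Fgfr4, Fzd1, Fzd2, Ephb3, Epha7 and Pdgfra. Igf2os, Igf2bp1 and Pdgfrl entered by the form of their names. Their 22 promoters had H3K4me1 at 20 in Veh and 21 in GSK, H3K4me2 at 17 and 17, LSD1 at 10 and 13, and no H3K27ac or Pol II. Igf2, an imprinted fetal growth factor, had a GSK H3K4me3 fold of 5.40, H3K4me2 in GSK only (5.32) and LSD1 in both (4.41 and 4.40). Fzd2, a Wnt receptor, likewise had H3K4me2 in GSK only (5.59), and LSD1 of 3.73 in Veh and 4.58 in GSK. Fgf9 had LSD1 (4.46) and H3K4me1 (2.73) in GSK only. Fgfr3 was a case of a peak edge, 129 bp from a Veh peak.

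Genes of excitable cells formed a further group. Of 194 ion channel genes 11 (5.67%) were members and 1, P2rx3, was Veh only, beside 1.61% and 0.394% of all genes. Of 108 synapse genes 6 (5.56%) were members, of 104 neurotransmitter receptor genes 5 (4.81%), and in both lists 0 were Veh only. With equal lists these counts were 8 and 3 for the channels, 5 and 0 for synapse genes and 2 and 1 for receptors. Over all 26142 genes they were then 266 and 207. The antisense gene Kcnd3os, on the same peak as Kcnd3, entered the channel list by the form of its name. So did Grid2ip in the receptor list. All 7 promoters of the synapse genes Bsn, Syt2, Syt7, Syt3, Elavl3 and Shank1 had H3K4me1 and H3K4me2 in both treatments, and LSD1 at 5 in Veh and 7 in GSK. Bsn, a presynaptic scaffold gene, had an H3K4me3 fold of 5.34 in GSK and LSD1 of 8.27 in Veh and 9.58 in GSK. Kcna7, a potassium channel gene, had a GSK H3K4me3 fold of 5.06, with LSD1 of 7.47 in Veh and 9.64 in GSK. Kcnh5, of the same channel class, had no peak of any antibody in Veh and LSD1 (5.42) and H3K4me1 (4.45) in GSK. The serotonin receptor genes Htr1b, Htr1d and Htr7 all had H3K4me1 in both treatments. At the 6 promoters of the receptor list LSD1 was listed at 2 in Veh and 0 in GSK, and H3K4me2 at 6 and 4.

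Other families gave lower shares, to be read beside the 1.61% of all genes that were members. Of adhesion and matrix genes 10 of 327 (3.06%) were members, among them Col1a1, the type I collagen gene, and Cldn7, a tight junction gene, both with a Veh peak beside the window. Kinase and phosphatase signalling genes gave 11 of 310 (3.55%), G protein-coupled receptor genes 7 of 229 (3.06%), solute carrier genes 7 of 396 (1.77%), Zfp zinc finger genes 4 of 402 (0.995%, with 5 Veh only), detoxification genes 2 of 215 (0.930%) and cytoskeleton genes 3 of 338 (0.888%). Small RNA genes gave 6 of 1331 (0.451%) and provisional gene names 56 of 4406 (1.27%). No member came from 1535 olfactory, vomeronasal and taste receptor genes, from 83 cell cycle genes, of which 95.2% had H3K4me3 in both treatments, or from 26 germline genes. In all, 179 of the 422 genes were in at least 1 of the 29 lists.

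The T cell lists were short and gave few members in number. None of 12 inhibitory receptor genes was a member, with H3K4me3 in both treatments at 10, and none of 15 T cell receptor and coreceptor genes, with H3K4me3 in both at 15. At the 1.61% of all genes, lists of this size would hold less than 1 member. The exception in the latter was a further TSS of Zap70, a kinase of T cell receptor signalling, which was Veh only because a GSK peak ended outside the window. Of 22 effector genes, the chemokine genes Xcl1 and Ccl3 were members (9.09%, 2.53 to 27.8) and Lta was Veh only. Xcl1 had a GSK H3K4me3 fold of 4.12 (−log10 p 7.26), with H3K4me1 in both treatments (4.73 and 4.55) and LSD1 in Veh only (5.82). Ccl3 had 3.85 (−log10 p 5.82), with H3K4me2 in Veh only (4.34) and LSD1 in GSK only (3.75). Cxcl10 and Cxcl12, chemokine genes as well, had 3.35 and 4.37. Lef1, a transcription factor gene of naive and memory T cells, was the member of 16 memory genes (6.25%, 1.11 to 28.3) and entered by an alternative TSS (fold 2.86), and other TSSs of it had H3K4me3 in Veh. The chemokine, cytokine and receptor genes gave 4 members of 197 and 3 Veh-only genes, beside 1.61% and 0.394% of all genes. With equal lists they gave 1 and 4, beside 266 and 207 of all 26142 genes.

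Among genes of other blood cells, Pou2af1, a B cell coactivator gene, was the member of 18 B cell genes. It had an H3K4me3 fold of 5.77 in GSK, LSD1 of 7.01 in Veh and 6.56 in GSK, H3K27ac in Veh only (4.13) and Pol II in GSK only (2.89). Spi1, of 23 myeloid genes, was Veh only, with H3K4me3 of 3.41 and Pol II of 5.58 in Veh and neither in GSK. No member came from 16 erythroid and megakaryocyte genes, 14 NK cell genes or 12 CD4 T cell genes. Whether other cells in the cultures had a part in these peaks was not tested.

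The strongest members without a Veh peak nearby differed in what else they carried. Zxdb, a zinc finger gene, had the highest −log10 p, 19.2, on a 178 bp peak at chrX:94725311-94725488 in its coding exon, with no peak in any of the 10 other lists. It has a close paralogue, so uniquely mapped reads there are uncertain. She, an SH2 adaptor gene, had an H3K4me3 fold of 6.14, and LSD1 of 4.52 in Veh and 7.71 in GSK. Tent5b, a poly(A) polymerase gene, had an H3K4me3 fold of 6.38 and LSD1 of 8.49 in Veh and 13.0 in GSK. Both had H3K4me1 and H3K4me2 in both treatments, so the CpG-rich She and Tent5b promoters were already marked in Veh cells. Enho, the adropin gene, had H3K4me2 of 8.52 in Veh and 7.38 in GSK. Mixl1, a homeobox gene of mesendoderm, had LSD1 of 4.88 in Veh and 8.15 in GSK.

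A GSK-only peak of at least 2 other antibodies was found at 20 members (4.16%), beside 2.85% of all promoters. Grb10, an imprinted gene for an adaptor that restrains insulin signalling, led these 20. Its peak at chr11:12037132-12037421 had an H3K4me3 fold of 6.72, with H3K4me1 (4.35) and H3K4me2 (4.65) in GSK only and LSD1 in both (3.77 and 3.89). Pik3r6, a PI3K regulatory subunit gene, had LSD1 (4.79) and H3K4me1 (2.77) in GSK only. Brsk2, a neuronal kinase gene, Bcam, a laminin receptor gene, and Scn8a, a sodium channel gene, had LSD1 and H3K4me2 in GSK only beside H3K4me1 in both. Myadm had LSD1 (3.15) and Pol II (3.08) in GSK only. At the other end, 25 members had no peak in any of the 10 other lists, among them Ciita, Tlr3 and Gpr15. In the Veh lists alone, 7.90% of the members had no peak of the 5 other antibodies. The same held for 11.9% of weak shared promoters, 24.3% of Veh-only promoters and 87.8% of promoters with H3K4me3 in neither treatment.

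**Figure D5:**
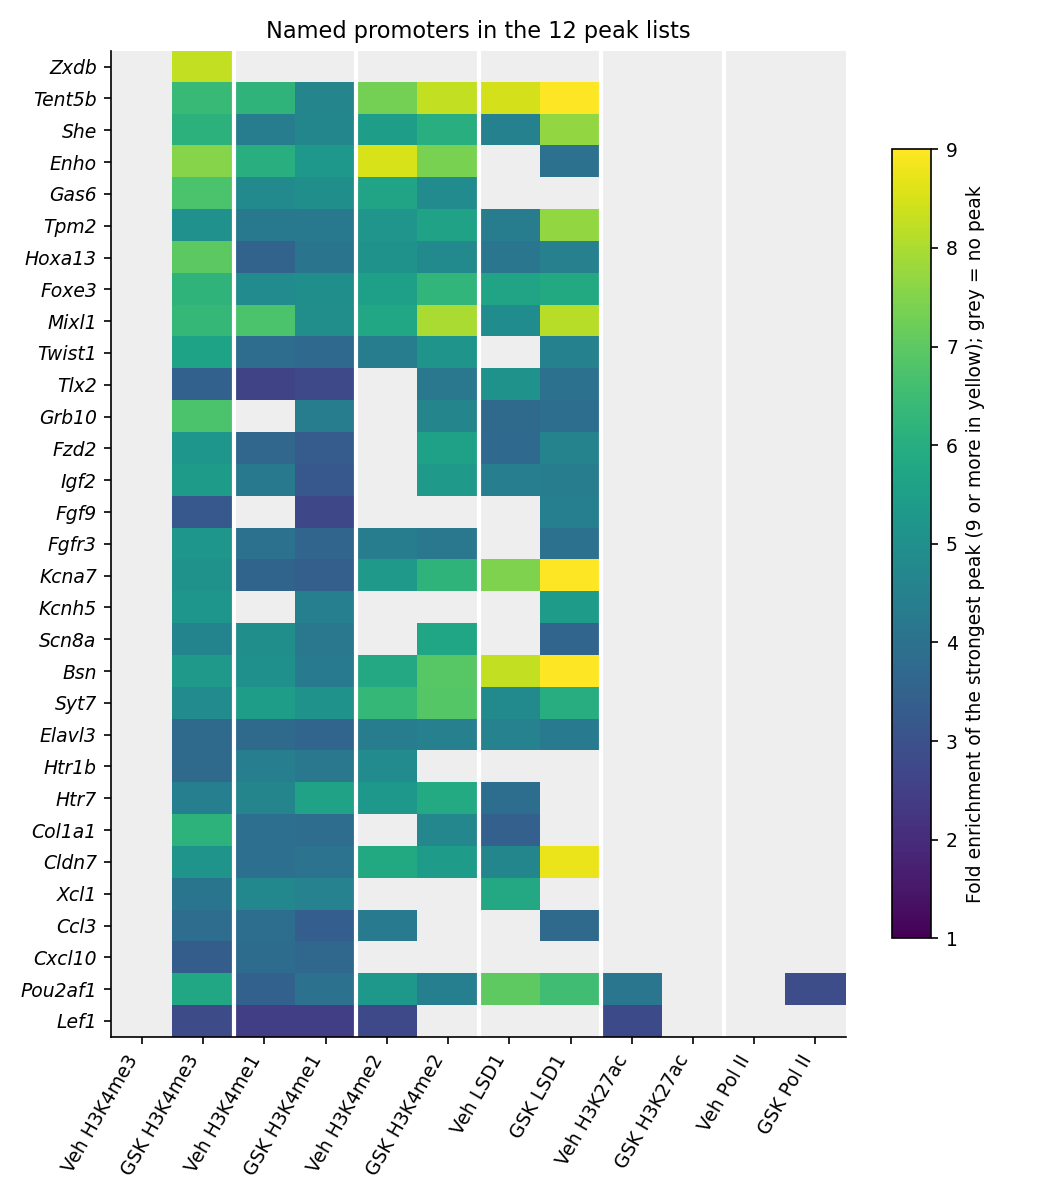
Fold enrichment (colour scale, ratio over local background) of the strongest peak at 31 named GSK-only promoters (rows) in each of the 12 lists (columns), with folds of 9 or more in yellow and grey for no peak. Veh H3K4me3 is empty by the rule, H3K4me1 and H3K4me2 are filled in most rows in both treatments, and H3K27ac and Pol II are empty except at Pou2af1 and Lef1. All rows but Gas6, Tpm2 and Tlx2 are genes named in the text, and the rows were not drawn at random.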

How the data were processed

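The authors kept uniquely mapped reads (Bowtie2, mm10), took out duplicates (Samtools) and ran MACS2 with a stated p cutoff of 0.001. The LSD1 and Pol II lists reached down to a −log10 p of 3.00 to 3.01. The lists of the histone marks stopped at a −log10 q of 3.01 to 3.03. LSD1 and Pol II were thus listed down to weaker peaks than the histone marks, H3K4me3 among them. The input used as control is not given in the sources used here. Per peak, the lists as deposited by the authors give the fold enrichment over local background with its −log10 p and −log10 q. They also deposited a score, a scaled −log10 p or q used here only to check the columns. The 4 input samples have no peak list and were not analysed here.

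Peaks were laid over 31603 windows that reach 1 kb up- and downstream of a curated RefSeq TSS (GRCm38.p6), and 1 bp of overlap counted. Shares carry Wilson 95% intervals, which cover counting error only. Since each antibody and treatment had 1 library, no test was run. The shares were checked on simulated peaks. Python 3.11.15, pandas 2.3.3, numpy 2.4.6 and matplotlib 3.10.9 were used. The members and gene lists were chosen with earlier results of these data known.

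Genes were named by rule: the 15 GSK-only and 6 Veh-only genes with the highest −log10 p, up to 8 members with GSK-only peaks of at least 2 other antibodies, up to 4 members and 1 Veh-only gene of each list, 3 promoters on each side of the rule's edges, the cell type markers and the 5 widest peaks apart from Veh peaks. All other genes and the printed sequences of Grb10, Hoxa13, She, Tent5b and Zxdb were chosen after values were seen. The alternatives changed window size, overlap, peak thresholds and list length, or counted each gene once. Leaving out peaks touched by a peak of the other list was added after seeing the data. Results for some genes are not reported here.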

Additional observations from a re-analysis of the deposited data

How the results depend on the processing

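With the longer H3K4me3 list shortened to equal length by −log10 p, 304 promoters had H3K4me3 in GSK only and 230 in Veh only. This cut fell on the GSK list alone, whose lowest −log10 p became 7.20, beside 5.23 in Veh. With a −log10 q of at least 5 asked of both lists, 433 genes were GSK only and 109 Veh only. In the lists as deposited these were 422 and 103 genes. The difference in size between the sets thus depended on how the lists were cut. At equal length the net change over the members was 1.66 percentage points (−1.37 to 4.48) for H3K4me1, −0.624 for H3K27ac and 12.9 for H3K4me2, the last a reversal from −9.77. H3K27ac was −4.37 points with a window of 2 kb and −2.37 with 1 window per gene. Of 51 alternatives over 7 results, the other 44 kept direction and size, and the net LSD1 gain ranged from 13.3 to 15.9 points. The cause of these shifts was not tested beyond list length. No paired analysis was possible because each antibody and treatment had 1 library and the numbered inputs carry no peak list. A weak peak just over the threshold in 1 library and just under it in the other cannot be told apart from a change in the mark.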

Other observations

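A few members carried marks of use. H3K27ac was listed in Veh at 11 members, among them Lef1, Pou2af1, Cmah, a sialic acid hydroxylase gene, Pdcd4, a translation inhibitor gene, and P2ry12, a purine receptor gene, and in GSK at Gm15471. Pol II was listed in GSK at 13 members, among them Csrnp1, Sigirr, Eef2k and the histone genes H2ac8, H2bc8, H2ac15 and H2bc15. The histone genes belong to a family of near-identical copies, so reads assigned to them are uncertain. These genes were named after their values were seen.

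The share of promoters that were members ran on the autosomes from 0.70% on chromosome 17 to 2.61% on chromosome 4, where 51 of 1954 were members. It was 0.83% on the X chromosome, and 0 of 93 on the Y chromosome were members. Of the members, 140 lay within 1 kb of another member, so neighbouring start sites often shared a peak. Among peaks apart from Veh peaks, those of Gpr15, a gut-homing receptor gene, at 2003 bp and Htr1b at 1672 bp were the widest.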
